A study of Mus musculus with 9 samples.

Results

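The replication-dependent histone genes supply the core and linker histones that package DNA as it is copied. They were taken here as every gene of the count table whose name begins with Hist1, Hist2, Hist3 or Hist4, which gave 68 of 24060 named rows. By histone type these were 6 genes for the linker histone H1, 18 for H2A, 19 for H2B, 12 for H3 and 13 for H4. By cluster, 54 belonged to Hist1, 10 to Hist2, 3 to Hist3 and 1 to Hist4.

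The study measured RNA of LSKs, the mouse bone marrow population that is low in lineage markers and positive for Sca1 and Kit and that holds the blood stem cells. There were 3 control libraries, 2 libraries of the NUP98-HOXD13 transgene (NHD13) and 4 libraries labelled NHD13/MSI2. NHD13 is a fusion gene that gives mice a myelodysplastic syndrome and is driven by the Vav promoter in blood cells. The NHD13/MSI2 mice also carried KH2-Col1A1-tet-on-MSI2 with ROSA26-rtTA, through which doxycycline switches on the RNA-binding protein MSI2. All donors were on a C57BL/6 background. Their marrow had been grafted into lethally irradiated congenic CD45.1 recipients, every group was fed doxycycline, and the CD45.2 donor cells were sorted. Each library has a labelled age of 4 months. The paper places these cells 4 months after transplantation and 3 months after MSI2 induction, so the label need not be the age of the donors. Nothing in the labels says that the libraries of a group came from separate animals, so each p-value measures the spread between these libraries, which may be technical.

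Replication-dependent histone genes lie in clusters, mostly lack introns and are transcribed in S phase, when NPAT activates them at histone locus bodies. Their messages usually end in a conserved stem-loop instead of a poly(A) tail, and SLBP binds this stem-loop and carries the message through processing and translation. Some of the genes are known to give polyadenylated transcripts as well, and in dividing blood progenitors the family is a usual readout of replication.

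The stem-loops are shown because they set these messages apart from others, with one example for each type. A 16-nt stem-loop was found after the reading frame of 46 of the 68 genes in the GENCODE M21 transcripts (GRCm38), 21 to 58 nt past the stop codon with a median of 31 nt. Capitals mark the stem-loop and lower case the 7 nt on either side.
Hist1h1e: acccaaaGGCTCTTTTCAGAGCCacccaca
Hist1h2ae: aaacaaaGGCTCTTTTCAGAGCCattcact
Hist1h2bm: acacaaaGGCTCTTTTCAGAGCCactaagc
Hist1h3d: ccccaaaGGCTCTTTTCAGAGCCacccccg
Hist1h4d: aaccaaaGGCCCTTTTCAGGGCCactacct
Of the 46 genes, 26 had the form shown for Hist1h1e, 7 had the form of Hist1h4d and 6 had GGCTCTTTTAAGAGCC. The other 22 genes had no match in their annotated transcripts, Hist1h1a, Hist1h1b, Hist1h2bc, Hist2h2bb and Hist2h2be among them. Some of these transcripts end at the stop codon, that of Hist2h2bb among them (381 nt, as long as its reading frame). In those no match was possible, so the lack of a match need not mean that the gene lacks a stem-loop. For 23 genes the annotated transcript ran over 100 nt past the stem-loop.

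The promoters are shown because histone types differ in the elements before their start. The RefSeq promoter table (GRCm38.p6) held 61 of the 68 genes, each with 250 bases before and 50 after the start, and 150 bases before the start are printed for 1 gene of each type, 5′ to 3′ on the strand of the gene. Capitals mark every match on either strand to the CCAAT box (its letters are its name), the TATA box searched as TATAAA, the octamer searched as ATTTGCAT and the H1 box searched as AAACACA.
Hist1h1e, minus strand of chr13:23622559-23622708: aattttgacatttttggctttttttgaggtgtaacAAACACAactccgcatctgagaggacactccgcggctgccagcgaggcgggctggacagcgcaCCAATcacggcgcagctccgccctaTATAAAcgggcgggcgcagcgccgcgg
Hist1h2ae, minus strand of chr13:23571221-23571370: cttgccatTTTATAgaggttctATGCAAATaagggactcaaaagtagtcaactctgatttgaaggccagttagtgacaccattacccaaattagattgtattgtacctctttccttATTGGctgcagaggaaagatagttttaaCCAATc
Hist2h2bb, plus strand of chr3:96269550-96269699: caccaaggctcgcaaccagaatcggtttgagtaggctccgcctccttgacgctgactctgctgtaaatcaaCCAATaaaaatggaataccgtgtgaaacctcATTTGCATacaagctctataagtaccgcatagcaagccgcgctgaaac
Hist1h3d, plus strand of chr13:23575613-23575762: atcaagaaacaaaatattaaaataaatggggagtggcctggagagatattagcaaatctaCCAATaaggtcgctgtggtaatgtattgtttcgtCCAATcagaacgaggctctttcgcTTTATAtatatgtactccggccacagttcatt
Hist1h4d, plus strand of chr13:23581418-23581567: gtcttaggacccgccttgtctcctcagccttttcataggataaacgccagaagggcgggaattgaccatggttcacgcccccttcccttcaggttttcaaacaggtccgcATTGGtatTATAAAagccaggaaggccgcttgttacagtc
In the whole promoter windows, CCAAT stood in 52 of 61 histone promoters (85.2%) and in 37.4% of all 32851 promoters in the table. Only 3 of the 12 H4 promoters held it, whereas each H1, H2A, H2B and H3 promoter did. The octamer stood in 7 of 17 H2A and 7 of 16 H2B promoters and in none of the 28 others, against 1.74% of all promoters. The H1 box was present in 5 of 6 H1 promoters, against 7.18% of all, and TATAAA in 57.4% of the histone promoters, against 13.6% of all. Matches of different motifs overlapped in 0 of the 61 promoters. A match is a description of the letters and not evidence that a factor binds. The submitters' notes name mm9 as their build, so these positions need not be those at which reads were counted.

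Across the 9 libraries the total counts ranged from 19242153 to 23013493. Library NHD13/MSI2 replicate 4 stood apart from the other 3 of its label, with a chi-square per gene of 376 to 403 against them and of 18 to 30.8 among them. The counts of Msi2 did not show the labelled overexpression, at 88.0, 77.1, 82.8 and 241 CPM in the libraries labelled NHD13/MSI2, 139 and 111 CPM in NHD13 and 223, 316 and 266 CPM in control. Its log2 fold change in NHD13/MSI2 was -0.03 over NHD13 (edgeR adjusted p = 0.98) and -1.13 over control (edgeR adjusted p = 0.069). Whether reads of the MSI2 transgene fall on this row is not given in the sources used here. Every direction given for NHD13/MSI2 therefore rests on the label. Nup98 was at 1004 CPM in replicate 4 and at 213 to 237 CPM in all other libraries. Hoxd13 had 0 counts in each control library and 13 to 25 in each of the others. Of the markers of the sorted cells, Kit was read at 908 to 2253 CPM and Ptprc, which encodes CD45, at 482 to 804 CPM in every library. Both belong to a list of 8 LSK markers, of which 4 were lower in NHD13/MSI2 than in control (edgeR adjusted p under 0.01). CPM is the count scaled to library size, given throughout after TMM scaling, which corrects for differences in library composition.

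Histone messages made up a small part of these libraries. They held 4373 to 6830 counts per library (0.0217% to 0.0332% of the total) in 8 libraries and 1500 counts (0.00764%) in NHD13/MSI2 replicate 4. Whether the RNA was selected by its poly(A) tail is not given in the sources used here. The 5 genes with the most counts, Hist1h1e (12.3%), Hist1h2bc (11.7%), Hist1h2ae (10.7%), Hist1h1b (9.76%) and Hist1h4d (8.75%), together held 53.3% of all histone counts. Per kb of the longest annotated transcript the order differed, with a mean level of 36.3 CPM per kb for Hist1h2ae, 31.3 for Hist1h1b, 25.0 for Hist1h2bc, 18.2 for Hist1h4d, 17.1 for Hist1h1a and 15.1 for Hist1h1e. A filter on low counts left 43 of the 68 genes to be tested (5 H1, 10 H2A, 14 H2B, 7 H3 and 7 H4), which held 98.8% of the histone counts. Of the 25 others, 18 had counts, at most 70 over all libraries (Hist1h3i), and 7 had none in any library. These 7 were Hist1h2aa, Hist1h2ap, Hist1h2bq, Hist1h2br, Hist2h2aa1, Hist2h3c1 and Hist2h3c2. Many of the genes are near-identical, and the annotated spans of Hist1h2be and Hist1h1e overlap, so the counts of single genes are uncertain where reads match several copies. Over whole transcripts, the share of 50-base stretches in another gene was 100% for Hist2h2aa2, 79.7% for Hist2h3b, 43.2% for Hist1h2ae and 30.6% for Hist1h2bc. It was 10.2% for Hist1h4d, 8.2% for Hist1h1e and 0% for Hist1h1a, Hist1h1b, Hist2h2bb and Hist2h2be. Within the reading frame alone the share was 97.6% for Hist1h2bc, 81.4% for Hist1h2ae, 42.2% for Hist1h4d and 25.4% for Hist1h1e.

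Summed over its genes, H2B was higher in the first 3 NHD13/MSI2 libraries than in any library of the other groups, while the 4 other types overlapped with control. H2B summed to 64.3, 82.6 and 51.3 CPM in control, 58.1 and 45.3 CPM in NHD13 and 115, 115, 107 and 59.6 CPM in NHD13/MSI2. The 4th NHD13/MSI2 library therefore lay within the range of control and above both NHD13 libraries. As group levels, H2B was at 66.1 ± 15.7 CPM in control (SD, n = 3), 51.7 ± 9.06 CPM in NHD13 (SD, n = 2) and 99.2 ± 26.7 CPM in NHD13/MSI2 (SD, n = 4), or 112 ± 4.76 CPM without replicate 4 (SD, n = 3). H2B took 24.7% to 28.7% of the histone counts in control, 20.99% to 28.6% in NHD13 and 33.9% to 41.4% in the first 3 NHD13/MSI2 libraries. The share was 61.2% in replicate 4, so the makeup of the histone messages in that library differed from the rest as well as their amount.

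**Figure D1:**
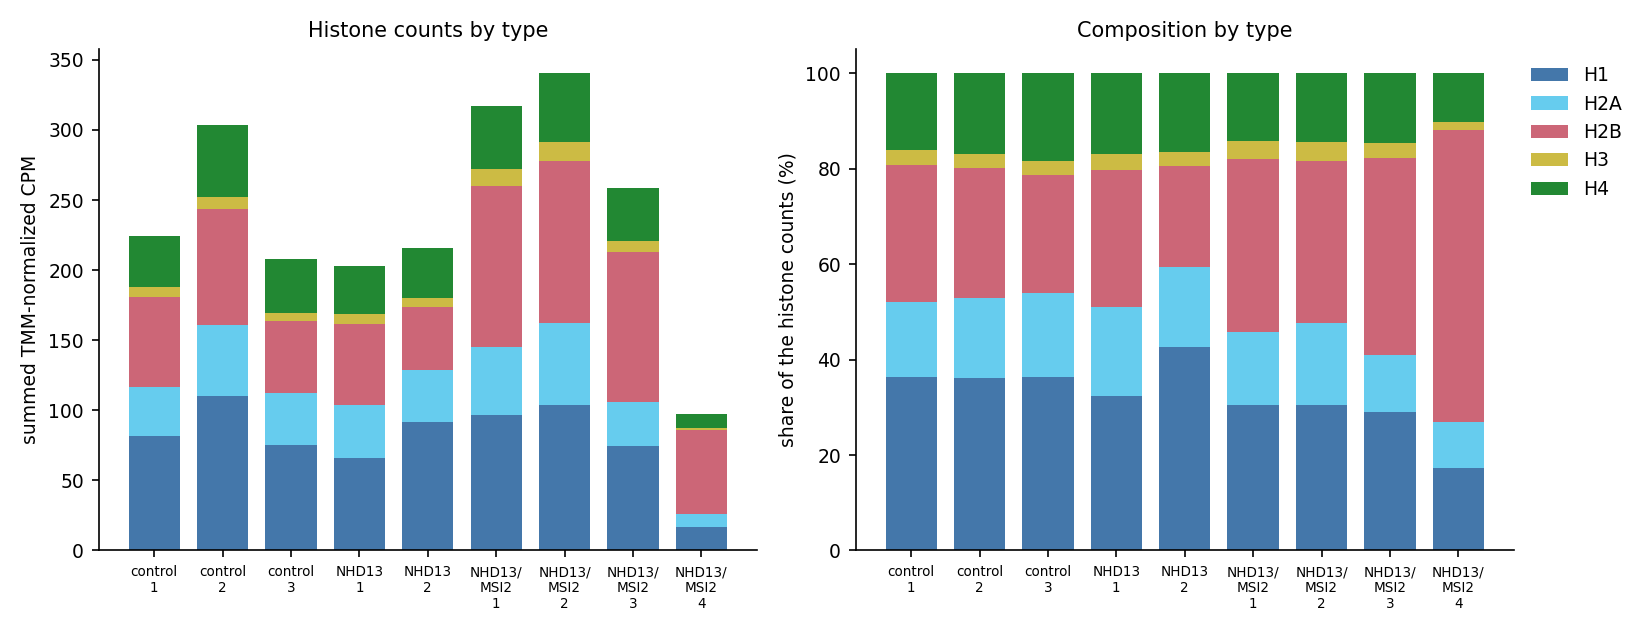
Summed histone counts in each of the 9 libraries by type, as TMM-normalized CPM (left, stacked bars) and as a percentage of the histone counts of that library (right). NHD13/MSI2 replicate 4 has the lowest bar, at 97.3 CPM, and the largest H2B share, at 61.2%.

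For all histone genes together the sums were 224, 303 and 208 CPM in control, 203 and 216 CPM in NHD13 and 317, 341, 258 and 97.3 CPM in NHD13/MSI2. The groups overlapped, since control replicate 2 lay between NHD13/MSI2 replicates 1 and 3, and replicate 4 lay below every other library. In bulk RNA such a level cannot tell fewer cells in S phase from less histone RNA per cell.

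The sums of the other types in NHD13/MSI2 replicates 1 to 3 were 74.9 to 103.9 CPM for H1, 31.0 to 58.7 for H2A, 8.10 to 13.1 for H3 and 37.6 to 49.4 for H4. The control ranges were 75.6 to 109.9, 35.0 to 50.8, 5.84 to 8.73 and 35.9 to 51.4 CPM in the same order. In NHD13 the sums were 65.8 and 91.9 CPM for H1, 37.8 and 36.5 for H2A, 6.76 and 6.32 for H3 and 34.6 and 35.9 for H4, so H3 and H4 in replicates 1 to 3 lay above both NHD13 libraries while overlapping control. Against the mean of those 3 replicates, replicate 4 was lower by a factor of 5.48 for H1, 4.88 for H2A, 1.89 for H2B, 6.79 for H3 and 4.44 for H4. H2B thus kept the highest part of its level in that library, and H3 the lowest.

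Tests were run in edgeR's quasi-likelihood model over all 13355 genes that passed the filter, and a gene was called at a Benjamini-Hochberg adjusted p under 0.01. No histone gene of the 43 was called in any contrast with all 9 libraries. In NHD13/MSI2 over NHD13 this was against 3.17% of all genes, in NHD13/MSI2 over control against 11%, in NHD13 over control against 1.03% and in the joint test of the 3 groups against 8.9%. At an unadjusted p under 0.05 the histone counts were 2, 2, 0 and 2, where all genes gave 21.7%, 32.8%, 13.5% and 30.8%. The 2 genes were Hist1h2bc and Hist1h2bm, both encoding H2B and both higher in NHD13/MSI2. Without NHD13/MSI2 replicate 4, which left 43 histone genes among 13305 tested, 1 gene, Hist1h2bc, was called in each of the contrasts with NHD13/MSI2 and in the joint test, and none in NHD13 over control. The shares of all genes called were then 4.86%, 15.5%, 13.1% and 1.89%. DESeq2, run on the 9 libraries, also called Hist1h2bc and no other histone gene in both contrasts with NHD13/MSI2, where it called 9.63% and 19.4% of all genes. At an edgeR adjusted p under 0.05, Hist1h2bc was likewise the 1 histone gene that passed over NHD13, over control and in the joint test, against 8.81%, 20.6% and 18.5% of all genes. In simulated counts with a 2-fold change, edgeR called 1 of 67 genes over NHD13 and 2 of 67 over control. A gene that was not called may therefore still differ.

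The H2B gene Hist1h2bc (chr13:23684199-23692908 in GRCm38) had the lowest p of the tested histone genes in each contrast with NHD13/MSI2. Its level was 23.9, 24.3 and 16.1 CPM in control, 18.4 and 12.2 CPM in NHD13 and 47.5, 51.5, 41.5 and 25.0 CPM in NHD13/MSI2. All 4 NHD13/MSI2 libraries lay above all libraries of the other groups, although replicate 4 exceeded control replicate 2 only narrowly. Over NHD13 the log2 fold change of Hist1h2bc was 1.43 (SE 0.34, edgeR adjusted p = 0.030), and over control it was 0.95 (SE 0.28, edgeR adjusted p = 0.042). Without replicate 4 these became 1.63 (SE 0.25, edgeR adjusted p = 0.0050) and 1.13 (SE 0.21, edgeR adjusted p = 0.0045). By DESeq2 the adjusted p was 5.6e-04 over NHD13 and 0.00999 over control. Between NHD13 and control the log2 fold change of Hist1h2bc was -0.49 and was not called (edgeR adjusted p = 0.65). Hist1h2bc took 7.78% to 10.7% of the histone counts in control, 5.65% to 9.08% in NHD13, 15% to 16.1% in NHD13/MSI2 replicates 1 to 3 and 25.7% in replicate 4.

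The H2B sum did not rest on this gene alone. With Hist1h2bc left out, a choice made after its values were seen, H2B summed to 40.5, 58.3 and 35.2 CPM in control, 39.7 and 33.1 CPM in NHD13 and 67.2, 64.0, 65.4 and 34.6 CPM in NHD13/MSI2. The first 3 NHD13/MSI2 libraries remained above the other groups and replicate 4 fell inside their range.

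The other H2B genes differed in how they behaved in replicate 4. Hist1h2bm, singled out after its values were seen, had 3.31, 6.93 and 2.48 CPM in control, 3.08 and 5.19 in NHD13 and 9.62, 10.5, 7.10 and 9.54 in NHD13/MSI2. It was the only tested histone gene whose level in replicate 4 was not below the mean of replicates 1 to 3, and all 4 NHD13/MSI2 libraries lay above the other groups, which overlapped each other. Its log2 fold change was 1.15 over NHD13 (SE 0.46, edgeR adjusted p = 0.18) and 1.12 over control (SE 0.40, edgeR adjusted p = 0.079), so it was not called. Hist2h2bb, from the Hist2 cluster, had 4.46, 7.31 and 5.28 CPM in control, 5.24 and 5.58 in NHD13 and 8.95, 10.2, 7.83 and 3.63 in NHD13/MSI2. Replicates 1 to 3 were above the other groups and replicate 4 was the lowest library. Hist2h2be had 12.1, 20.1 and 15.6 CPM in control, 19.3 and 10.1 in NHD13 and 17.6, 15.95, 27.8 and 12.3 in NHD13/MSI2, and all 3 groups overlapped.

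For H1, each of the 3 most abundant genes overlapped between groups when all libraries were used, and each was lowest in replicate 4. Hist1h1e, the histone gene with the most counts, had 29.8, 44.0 and 32.7 CPM in control, 27.8 and 34.2 in NHD13 and 27.5, 37.9, 25.5 and 3.70 in NHD13/MSI2. Apart from replicate 4, the 3 groups shared one range. Hist1h1b had 25.5, 39.3 and 25.7 CPM in control, 13.1 and 29.6 in NHD13 and 23.7, 26.3, 19.2 and 6.75 in NHD13/MSI2. The levels of Hist1h1a were 11.2, 12.7 and 8.31 CPM in control, 11.5 and 13.5 in NHD13 and 21.5, 18.6, 14.1 and 2.79 in NHD13/MSI2. Its first 3 NHD13/MSI2 libraries lay above the other groups, and without replicate 4 its log2 fold change over control was 0.75 (SE 0.23, edgeR adjusted p = 0.038), short of the threshold. With replicate 4 it was 0.41 (SE 0.54, edgeR adjusted p = 0.65).

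Among the H2A genes, Hist1h2ae was the most abundant, at 23.9, 35.2 and 27.9 CPM in control, 25.1 and 26.0 in NHD13 and 30.0, 39.8, 17.9 and 4.15 in NHD13/MSI2. Its groups overlapped throughout. Hist3h2a had 3.47, 3.65 and 2.68 CPM in control, 3.63 and 2.96 in NHD13 and 5.48, 5.04, 5.20 and 2.596 in NHD13/MSI2. Replicates 1 to 3 were tightly grouped above the other libraries, with a log2 fold change over NHD13 of 0.68 without replicate 4 (SE 0.32, edgeR adjusted p = 0.20). Hist2h2ac was low, at 0.839 to 1.99 CPM in control, 1.68 and 2.02 CPM in NHD13 and 2.79, 3.34, 1.85 and 0.260 CPM in NHD13/MSI2, and its groups overlapped.

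The H3 genes were the least abundant type. Hist2h3b had 1.68, 2.51 and 1.40 CPM in control, 2.16 and 2.17 in NHD13 and 3.15, 4.54, 2.04 and 0.584 in NHD13/MSI2. Hist1h3d had 2.41, 2.75 and 1.88 CPM in control, 1.29 and 0.988 in NHD13 and 1.81, 2.59, 1.40 and 0.0649 in NHD13/MSI2, where the last value is a single count. Both NHD13 libraries were below all controls for Hist1h3d, with a log2 fold change of -1.04 (SE 0.98, edgeR adjusted p = 0.80). Hist1h3e had 0.759 to 1.06 CPM in control, 1.01 and 0.889 in NHD13 and 2.43, 1.45, 1.09 and 0.130 in NHD13/MSI2. Its first 3 NHD13/MSI2 libraries were above the other groups, without a call.

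H4 was led by Hist1h4d, which had 20.2, 30.7 and 24.6 CPM in control, 21.7 and 22.4 in NHD13 and 21.4, 25.2, 18 and 1.75 in NHD13/MSI2. Relative to the mean of replicates 1 to 3, replicate 4 was at -3.29 on the log2 scale of CPM + 0.5, the lowest value of the 43 genes. Hist1h4c had 3.47, 4.36 and 2.56 CPM in control, 2.94 and 3.46 in NHD13 and 6.00, 6.93, 5.07 and 2.99 in NHD13/MSI2, with the first 3 of these above the other groups. Without replicate 4 its log2 fold change over NHD13 was 0.92 (SE 0.35, edgeR adjusted p = 0.13). Hist1h4i overlapped between control, at 3.20 to 4.79 CPM, and NHD13/MSI2, at 5.53, 4.49, 3.80 and 1.75 CPM, while NHD13 had 2.90 and 3.31 CPM.

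**Figure D2:**
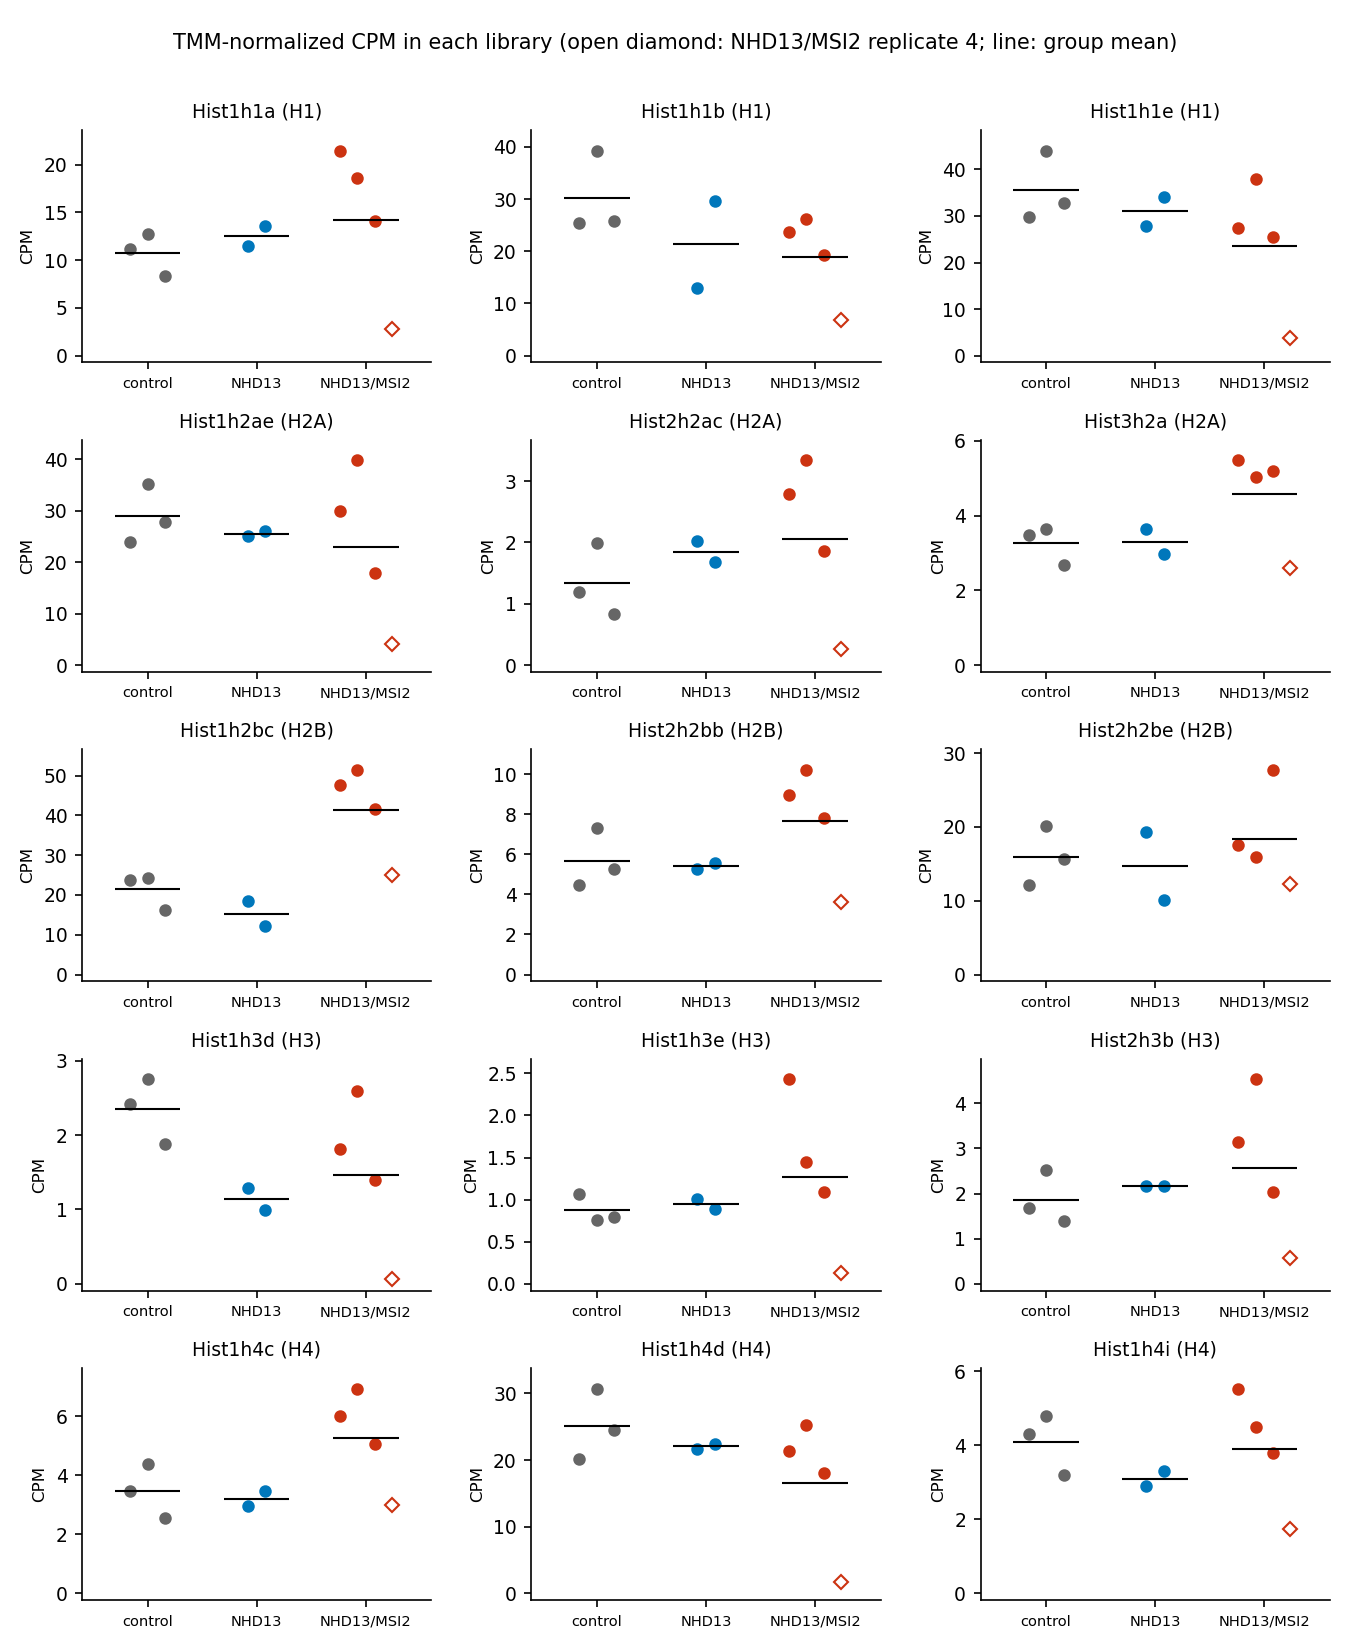
TMM-normalized CPM of the 3 histone genes of each type with the highest mean level, by group, with each library as a point, a line at the group mean and replicate 4 of NHD13/MSI2 as an open diamond. Hist1h2bc is the one panel in which all 4 NHD13/MSI2 points lie above every other point, and Hist1h4d drops to 1.75 CPM in replicate 4.

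Fold changes of the tested histone genes over NHD13 were mostly above 0, with H2B highest. The median log2 fold change over NHD13 was 0.42, and 38 of 43 were above 0, where all genes had a median of -0.028 and 47.3% above 0. By type the medians were 0.19 for H1, 0.28 for H2A, 0.77 for H2B, 0.37 for H3 and 0.61 for H4. All 14 H2B genes were above 0, or 13 of 14 under upper quartile scaling. Without replicate 4 the overall median was 0.74 with 41 of 43 above 0 (47.6% of all genes), and the medians by type were 0.54, 0.61, 1.05, 0.78 and 0.90 in the same order. Over control the median was 0.31 with 30 of 43 above 0, against 49.1% of all genes, and it was highest for H2B at 0.49 and below 0 for H4 at -0.07. Without replicate 4 the overall median was 0.58, with 37 of 43 above 0 (48.1% of all genes), the H4 median was 0.21, and H3, at 0.80, was above H2B, at 0.71. The contrasts with NHD13 and with control share the NHD13/MSI2 libraries, so they are not independent of each other. These medians describe the genes that passed the filter and are no test of the family. Those without replicate 4 leave out the library that was lowest for 34 of the 43 genes.

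**Figure D3:**
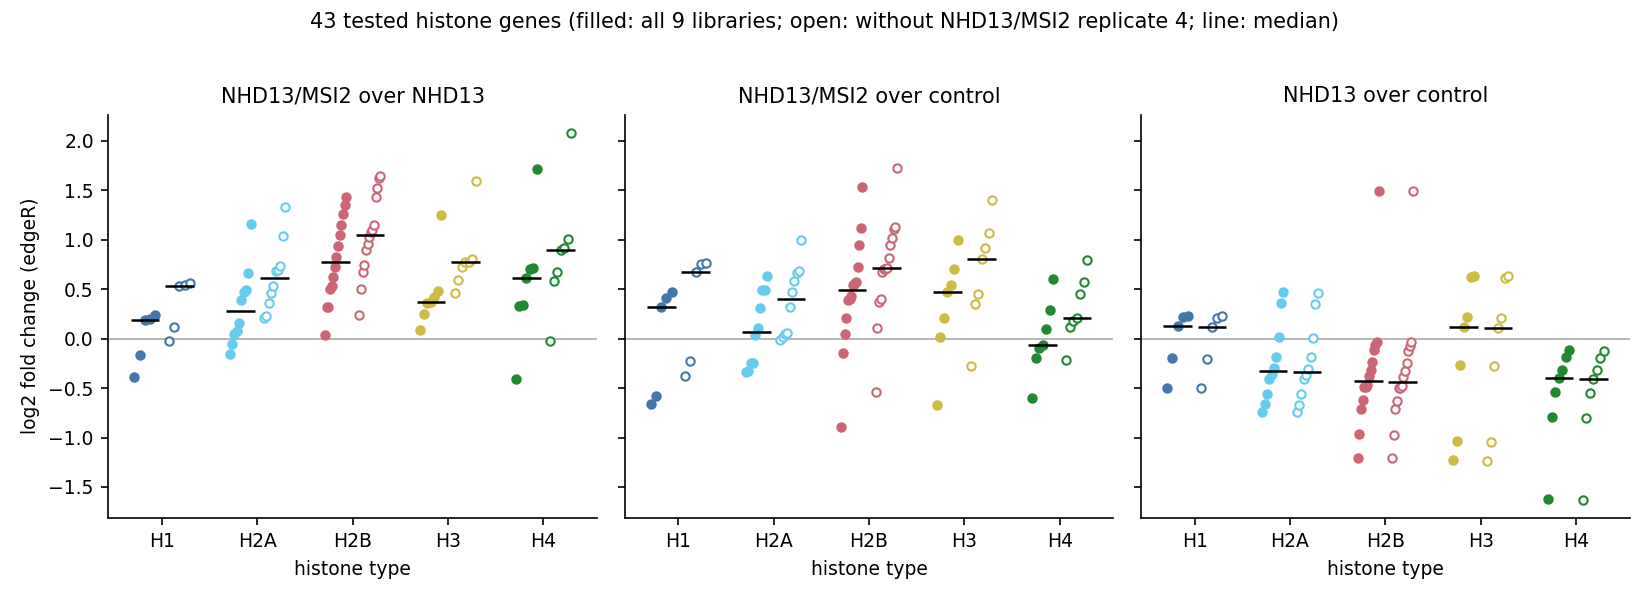
Log2 fold changes from edgeR of the 43 tested histone genes by type in the 3 contrasts, with all 9 libraries (filled) and without NHD13/MSI2 replicate 4 (open), and a line at each median. H2B has the highest medians over NHD13, 0.77 and 1.05.

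Counting genes whose groups did not overlap gave few with all libraries and more without replicate 4. That library was the lowest of the 9 for 34 of 43 histone genes and for 25.4% of all genes. Leaving it out therefore favours a higher count for the histone genes, so the shares without it are not on the same footing. Over NHD13, 4 of 43 tested genes were higher in every NHD13/MSI2 library (Hist1h2an, Hist1h2bc, Hist1h2bj and Hist1h2bm), below the 13% of all genes. Without replicate 4 it was 25 of 43, with 19.8% of all genes, and by type 2 of 5 H1, 3 of 10 H2A, 10 of 14 H2B, 4 of 7 H3 and 6 of 7 H4 genes. Over control, 3 genes did not overlap and were higher (Hist1h2bc, Hist1h2bl and Hist1h2bm, against 15.3%), and 13 without replicate 4 (against 22.4%), by type 3 of 5 H1, 1 of 10 H2A, 4 of 14 H2B, 3 of 7 H3 and 2 of 7 H4 genes. No tested histone gene was lower in every NHD13/MSI2 library than in NHD13, where 16.9% of all genes were, or than in control, where 20.4% were. Without replicate 4 the histone count was again 0, against 23% and 26.7%.

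NHD13 and control were close. The median log2 fold change over control was -0.32, with 11 of 43 above 0 where 52% of all genes were. Without control replicate 2, which had the highest level of the 9 libraries for 9 of 43 histone genes (10.2% of all genes), the median was 0.0012 with 21 of 42 above 0 (52.2% of all genes), so the direction of the whole set rested on that library. The H4 genes kept a median of -0.27 without it, with 6 of 7 below 0, against -0.40 and 7 of 7 with all libraries. The H2B genes had a median of 0.0068 without it, with 7 of 14 below 0, against -0.43 and 13 of 14 with all libraries. Hist1h2be, Hist1h2bg, Hist1h3d and Hist1h4b were lower in both NHD13 libraries than in all controls (18.5% of all genes were) and Hist1h2bl was higher (18.9%). None of the 5 was called.

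Replicate 4 of NHD13/MSI2 was the lowest of the 9 libraries for 34 of 43 tested histone genes, as against 25.4% of all genes. These were 5 of 5 H1, 8 of 10 H2A, 8 of 14 H2B, 7 of 7 H3 and 6 of 7 H4 genes. The exceptions in H2B were Hist1h2bc, Hist1h2bj, Hist1h2bl, Hist1h2bm, Hist1h2bp and Hist2h2be, and in H4 it was Hist1h4c. For 18 of 43 the level in replicate 4 was under 50% of the next lowest library, against 5.82% of all genes. On the log2 scale of CPM + 0.5 the median difference from the mean of replicates 1 to 3 was -1.20, against -0.049 for all genes. The range ran from -3.29 for Hist1h4d, -2.87 for Hist1h1e and -2.68 for Hist1h2ae to 0.068 for Hist1h2bm, and 67.4% of the histone genes were below -1, where 11.3% of all genes were. Genes of the Hist1 cluster and of the other clusters had close medians, at -1.18 and -1.50. Genes with at least 50% of their 50-base stretches in another gene had a median of -0.97 and those with fewer -1.46.

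**Figure D4:**
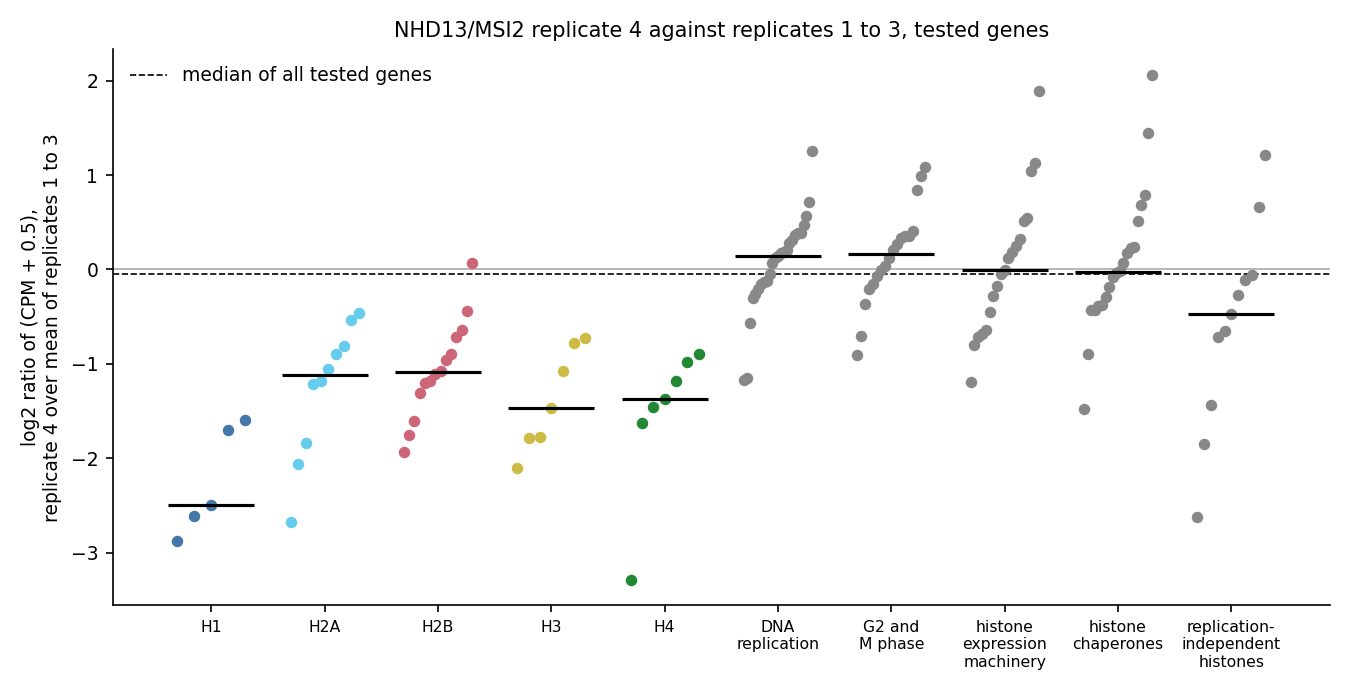
Log2 ratio of CPM + 0.5 in NHD13/MSI2 replicate 4 over the mean of replicates 1 to 3 for each tested histone gene by type and for the genes of 5 related lists, with a line at each median. The medians of the 5 histone types lie between -2.49 and -1.09, and those of DNA replication and of G2 and M phase genes at 0.15 and 0.17.

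Other measures of the same library are given beside this, and their part in the difference was not tested. Short and GC-rich messages were also lower in replicate 4. With the genes split into 5 bins of equal size, the bin of the shortest transcripts had a median log2 ratio of -0.306 (19.5% below -1) and the longest 0.178, and the bin of the highest GC had -0.265 and the lowest 0.0142. Tested histone transcripts had a median length of 621 nt and a GC content of 55.4%. The 750 single-exon genes had a median of -0.197. The TMM factor of replicate 4 was 0.785, where the other libraries had 0.969 to 1.09. The neutrophil markers had a median ratio of -1.79 in this library, and B cell, T cell, erythroid and LSK markers had -0.36, 0.26, 0.030 and 0.17.

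The lists of cell cycle, histone expression and chaperone genes had medians from -0.029 to 0.17 in this library, against -0.049 for all genes. The median ratio in replicate 4 was 0.15 for 25 DNA replication genes, 0.17 for 18 genes of G2 and M phase, -0.0032 for 19 genes of the histone expression machinery and -0.029 for 20 histone chaperones. Mcm2, a subunit of the replicative helicase, had 282 to 300 CPM in replicates 1 to 3 and 264 CPM in replicate 4. Rrm2, which makes deoxynucleotides, had 332 to 404 CPM and 408 CPM, and Mki67, a marker of dividing cells, 304 to 408 CPM and 445 CPM. Slbp, the stem-loop binding protein, was lower, with 202 to 245 CPM in replicates 1 to 3 and 131 CPM in replicate 4, while Npat had 88.3 to 125 CPM and 156 CPM. Single genes of these lists moved far from the medians, and the highest ratios of the machinery and chaperone lists were those of Upf1, which acts in histone message decay, with 31.1 to 37.2 CPM in replicates 1 to 3 and 130 CPM in replicate 4, and Chaf1a, of chromatin assembly factor 1, with 14.8 to 17.1 CPM and 68.7 CPM. Both were named after their values were seen. The list taken as replication-independent histones, which includes H2afx, was mixed, with a median of -0.47 over 11 genes. Whether each gene of that list is expressed apart from replication was not tested. H2afx had 63.8 to 88.0 CPM and 12.0 CPM in replicate 4, and H3f3a 148 to 192 CPM and 48.0 CPM, whereas H3f3b, which encodes the same H3.3 protein as H3f3a, had 1730 to 1833 CPM and 2816 CPM. H2afz had 428 to 516 CPM and 450 CPM. Over all 9 libraries Casp8ap2, which works with NPAT, ranged from 106 to 155 CPM, Eri1, an exonuclease that trims histone messages, from 62.2 to 126 CPM and the chaperone Asf1b from 95.0 to 151 CPM. The replication clamp Pcna ranged from 135 to 225 CPM, the cyclins Ccne1 and Ccne2 from 2.69 to 7.71 and from 45.4 to 67.0 CPM, and E2f1 from 9.51 to 17.1 CPM.

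The calls in these lists can be read against the 11% of all genes called over control and the 3.17% called over NHD13. Of the 19 machinery genes 1 was called, Cpsf2, a subunit of the cleavage complex, which was higher in NHD13/MSI2 than in control (log2 fold change 0.75, SE 0.14, edgeR adjusted p = 0.0054). Of the 20 chaperones 2 were called, both lower than in control: Chaf1b, of chromatin assembly factor 1, fell by 0.84 on the log2 scale (edgeR adjusted p = 0.0017) and Hjurp, the centromeric histone chaperone, fell by 0.98 (edgeR adjusted p = 0.0013). Chaf1b had 146, 161 and 156 CPM in control, 104 and 97.7 in NHD13 and 87.4, 73.9, 86.0 and 96.5 in NHD13/MSI2. None of the 25 DNA replication, 18 G2 and M phase or 11 replication-independent histone genes was called with all 9 libraries. Of 9 RNAs that carry no poly(A) tail, 6 were in the table and 1, Rpph1, was tested and not called, and together they summed to 0.24 to 2.82 CPM in control, 2.94 to 3.90 in NHD13 and 5.20 to 9.07 in NHD13/MSI2. The 114 rows of small nucleolar and Cajal body RNAs showed no such rise. They summed to 4.74 to 5.60 CPM in control, 5.06 and 5.14 in NHD13 and 4.14 to 4.96 in NHD13/MSI2. Without replicate 4, when 15.5% of all genes were called over control, 4 of the 25 DNA replication genes were lower than in control, among them Rrm1, Pola1 and Lig1. In the same fit the chaperone gene Ssrp1 and Mki67 were lower than in control and H2afy2, a macroH2A gene, was higher, with a log2 fold change of 2.51 over NHD13 (edgeR adjusted p = 0.0051) and 2.02 over control (edgeR adjusted p = 0.0022). H2afy2 had 5.68, 10.1 and 5.60 CPM in control, 6.67 and 3.46 in NHD13 and 29.5, 32.4, 24.0 and 10.3 in NHD13/MSI2.

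Markers of other cells also differed between the groups, and their part in the histone differences was not tested. Neutrophil markers, 6 of 7 of which were in the table, summed to 1741 to 2999 CPM in control, 3074 to 4195 in NHD13 and 8206 to 14210 in NHD13/MSI2, nearly all of it Mpo, which was called over control with a log2 fold change of 2.80. The median log2 fold change over control of the 6 tested neutrophil markers was -1.70 in NHD13/MSI2 and -1.77 in NHD13, so the list did not move as its sum did, and Mpo was its 1 call. Mpo is a granule enzyme that early myeloid progenitors also make. Of the 7 tested B cell markers 3 were higher than in control (Cd79a, Cd79b and Pax5), Cd79b also being higher than in NHD13, and the list summed to 46.4 to 58.7, 83.5 to 128.6 and 262.3 to 448.3 CPM in the same order. The LSK markers summed to 5241 to 5882, 3174 to 3959 and 2848 to 3710 CPM. Of the 8 tested, 4 were lower in NHD13/MSI2 than in control, Flt3, Cd34 and Procr among them. In NHD13/MSI2 over NHD13, 1 of the 8 was lower, and in NHD13 over control 1 was lower, Cd34. T cell markers summed to 37.7 to 50.3, 199.9 to 202.9 and 50.6 to 86.5 CPM, nearly all of it Lck, which was higher in NHD13 than in control and lower in NHD13/MSI2 than in NHD13, with Cd3e at 0 in every control and at most 0.698 CPM elsewhere. Erythroid markers summed to 86.7 to 144.5, 150.9 to 162.1 and 154.5 to 233.9 CPM, led by Tfrc, with Hba-a1 at 0 throughout. Of the 4 tested erythroid markers 1, Tfrc, was called higher and 1 lower in NHD13/MSI2 than in control, with a median log2 fold change of -2.54.

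The fold changes can also be set beside the sequences shown at the start. H2B genes with and without an octamer had median log2 fold changes over NHD13 of 0.77 and 0.78, over 6 genes each. Hist1h2bc and Hist2h2be had no RefSeq promoter sequence and stand in neither set. Genes with a stem-loop and at most 100 nt annotated past it had a median of 0.67 over 12 genes. Those with more had 0.36 over 18 and those with no match 0.39 over 13. Some of the 13 have no sequence annotated past the stop codon, so no match was possible in them. Hist1 genes had 0.43 over 35 genes and those of the other clusters 0.41 over 8. These are descriptions of genes that share libraries and sequence.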

How the data were processed

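RNA-seq was made from LSKs of 9 libraries (control, NHD13 and NHD13/MSI2). Values are unnormalized read counts, as the authors deposited them. The submitters' processing notes name STAR, HTSeq, DESeq and mm9, without versions, and strand, multi-mapping and poly(A) settings are not given in the sources used here. In the deposited table, 11942 names after the March genes stand 2 rows off and were moved back, with 13 rows left out. Histone names precede these. Unnamed rows (0.00305% to 0.00816% of counts) were left out. No column was unmapped.

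Counts were fitted in R 4.3.3 with edgeR 4.0.16 (filterByExpr, TMM, glmQLFit over all 9 libraries, no covariate), with Benjamini-Hochberg adjustment over 13355 genes and a threshold of 0.01. DESeq2 1.42.0, 2 other scalings, 2 other filters, a threshold of 0.05, a fit of the compared groups only, a replicate block and leaving out each library were tried. Depth was 19242153 to 23013493 counts; 3 counts, a floor for a count of 0, were 0.130 to 0.156 CPM, which covers counting error only. Named genes were called members and the 3 of each type with the highest mean CPM; lists were histone expression machinery, chaperones, replication-independent histones, DNA replication, G2 and M phase, RNAs without poly(A) tails and cell markers. The members and lists were chosen with earlier results of these data known. Some genes of these lists are not reported here. The count tests were first checked on simulated counts with known changes in NHD13/MSI2. Over NHD13, edgeR called 0 of 67 genes changed 1.5-fold, 1 of 67 changed 2-fold and 44 of 66 changed 4-fold. Over control it called 0, 2 and 47 of the same genes.

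Sequences came from RefSeq (GRCm38.p6) and GENCODE M21. Transcript length and GC matched 95.6% of the tested genes.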

Additional observations from a re-analysis of the deposited data

Results flagged for a closer look

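In 3 values the lowest of the 4 NHD13/MSI2 libraries lay far from the others by Dixon's criterion, and in each it was replicate 4. Hist3h2a was at 2.596 CPM in that library and at 5.04 to 5.48 CPM in the others. Hist4h4, the single gene of its cluster, was at 0.584 CPM, with 2.67 to 2.99 CPM in the others. The summed H2B level was 59.6 CPM, with 107 to 115 CPM in the others. By chance about 1 in 20 groups has such a gap, at either end and in any of the 4 libraries. With replicate 4 as the lowest library, which is only part of those cases, 340 of 13355 genes (2.55%) had one, so the shares are not on the same footing. No explanation was tested.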

How the results depend on the processing

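With all 9 libraries and the threshold of 0.01 no histone gene was called in any contrast. In NHD13/MSI2 over NHD13 and over control the count became 1 with DESeq2, with the replicate block and at an adjusted p under 0.05, and the joint test gave 1 with the block and at 0.05. Leaving out each library in turn gave 0 to 1, and 1 only without NHD13/MSI2 replicate 4. In each case the gene was Hist1h2bc. In NHD13 over control the count was 0 under every alternative run. The cause of these moves was not tested.

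The log2 ratio of the group means of all histone counts ranged, over the alternatives and left-out libraries, from 0.099 to 0.544 for NHD13/MSI2 over NHD13 and from -0.332 to -0.043 for NHD13 over control. For NHD13/MSI2 over control it ranged from -0.127 to 0.318, with values below 0 without the TMM factors and without control replicate 1 or 3 or NHD13/MSI2 replicate 1 or 2. The median log2 fold changes of the tested histone genes, under alternatives chosen after seeing the data, ranged from 0.22 to 0.88 over NHD13, from 0.11 to 0.58 for NHD13/MSI2 over control and from -0.51 to 0.0012 for NHD13 over control.

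Same-numbered replicates had correlations of -0.129 to 0.209 in their deviations from the group means, and differently numbered ones -0.209 to 0.167. The deviations of the 2 NHD13 libraries mirror each other, so these values cannot settle whether the numbers paired the libraries. With the replicate block, 203, 1407 and 101 genes of all 13355 were called in the 3 contrasts, where the fit without it gave 423, 1474 and 138. Over all genes the calls over NHD13 ranged from 128 to 646 when each library was left out and came to 1286 with DESeq2, 30 with the compared groups alone and 1177 at 0.05. Over control they were 647 to 2066, and 2589 with DESeq2 and 2745 at 0.05. For NHD13 over control they were 38 to 251, 594 with DESeq2, 83 with the compared groups alone and 386 at 0.05, and the joint test went from 1189 to 440 to 1743 with a library left out and 2472 at 0.05. The 25 histone genes left out of the tests had at most 70 counts each. Of those with no counts, Hist1h2ap, Hist1h2bq, Hist1h2br, Hist2h2aa1, Hist2h3c1 and Hist2h3c2 had 100% of their reading-frame 50-base stretches in another gene. For Hist1h2aa the share was 2.3%. The part of depth or of shared sequence in these low counts was not tested. With gene names as deposited, the counts called in the 5 lists of histone-related and cell cycle genes were equal to those with the names moved.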
